A study of Mus musculus with 8 samples.

Results

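Slc22 organic ion transporters of the liver were followed across 8 arrays. The group holds 7 genes, Slc22a5, Slc22a7, Slc22a26, Slc22a27, Slc22a28, Slc22a29 and Slc22a30, of the 26 Slc22 genes in the reference gene table. They were chosen by name with earlier results of these data in view, over the 4 groups of diet and duration, so for these 7 genes every difference between diets or durations below is a description without a test. Probes were matched through their RefSeq accession. Of 19752 genes with a probe, 6 were these, through 7 of the 55681 probes: 2 for Slc22a28 and 1 each for Slc22a5, Slc22a7, Slc22a26, Slc22a27 and Slc22a29. No probe was matched to Slc22a30, which is not analysed here beyond its promoter sequence. All 7 probes passed the filter on dim signal, which kept the 25847 probes whose spots stood well above background in both animals of some group.

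Liver RNA of male C57BL/6 mice, bought at 5 weeks of age, was labelled with Cy3 and hybridised to 1-colour Agilent arrays with 1 array per animal. Mice ate a high-fat diet (HFD, D12231 with 58% fat, 25.5% carbohydrate and 16.4% protein at 5.2 kcal/g) or a normal diet (ND, 4.8% fat, 50.21% carbohydrate and 20.78% protein at 3.8 kcal/g), for 3 or 9 months. Whether these percentages are shares of energy or of weight is not given here, so those of the 2 diets may differ in unit. The 4 groups were HFD 3 months, HFD 9 months, ND 3 months and ND 9 months, with 2 animals each. The labels name no mutation and no other agent. The label of ND 3 months replicate 1 also describes a diseased mouse, while its title and diet place it on ND. Levels are log2 processed signals relative to the 75th percentile of the array, so 0 is that percentile and 1 unit is a doubling. A level compares arrays for 1 probe and not 1 probe with another.

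The SLC22 family consists of membrane proteins that carry organic cations, organic anions and zwitterions such as carnitine across the plasma membrane. In liver they bring drugs, bile constituents, nucleotides and metabolites from the blood into hepatocytes. Slc22a5 encodes OCTN2, the sodium-dependent carnitine transporter, and carnitine is needed to bring long-chain fatty acids into mitochondria. Slc22a7 encodes OAT2, an organic anion transporter of the blood-facing membrane of hepatocytes. Slc22a26 to Slc22a30 belong to a rodent branch of the organic anion transporters, for most of which few substrates are known.

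Slc22a26, Slc22a27, Slc22a28, Slc22a29 and Slc22a30 lie in this order on chromosome 19 in GRCm38.p6, flanked by Slc22a19 and Slc22a8. Slc22a5 lies on chromosome 11 and Slc22a7 on chromosome 17. Between Slc22a26 and Slc22a30 the table lists pseudogenes and a non-coding RNA gene beside the 5 transporters. Such neighbours can share transcript sequence, and the probe sequences are not used here, so cross-hybridisation between the probes was not tested. Promoter windows of 300 bases (250 before the annotated start and 50 after it) from RefSeq were matched for 6 of the 7 genes. The windows of 4 neighbours are shown, of which Slc22a30 has no measured level. For Slc22a27, Slc22a28 and Slc22a29 the likeness of windows is set beside that of levels below. A link between windows and levels was not tested. All run on the minus strand of GRCm38.p6, at chr19:7965978-7966277 for Slc22a27, chr19:8131933-8132232 for Slc22a28, chr19:8218851-8219150 for Slc22a29 and chr19:8405056-8405355 for Slc22a30. Capitals mark the hexamer GTTAAC.
Slc22a27: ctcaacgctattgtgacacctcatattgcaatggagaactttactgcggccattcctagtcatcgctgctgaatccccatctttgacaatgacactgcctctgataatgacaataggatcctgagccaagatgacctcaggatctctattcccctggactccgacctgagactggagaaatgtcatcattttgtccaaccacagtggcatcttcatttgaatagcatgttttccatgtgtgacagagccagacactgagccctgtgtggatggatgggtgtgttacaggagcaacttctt
Slc22a28: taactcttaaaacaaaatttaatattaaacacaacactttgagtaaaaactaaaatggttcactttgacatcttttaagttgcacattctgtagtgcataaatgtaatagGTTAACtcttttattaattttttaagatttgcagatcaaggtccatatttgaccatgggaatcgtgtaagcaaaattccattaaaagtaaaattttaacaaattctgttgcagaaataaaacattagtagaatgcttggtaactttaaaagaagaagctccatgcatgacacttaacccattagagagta
Slc22a29: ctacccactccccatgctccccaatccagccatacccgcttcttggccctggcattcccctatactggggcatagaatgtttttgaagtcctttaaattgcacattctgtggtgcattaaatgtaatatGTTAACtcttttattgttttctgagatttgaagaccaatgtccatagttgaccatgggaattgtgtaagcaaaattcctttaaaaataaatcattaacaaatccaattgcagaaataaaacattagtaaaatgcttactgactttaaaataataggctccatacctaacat
Slc22a30: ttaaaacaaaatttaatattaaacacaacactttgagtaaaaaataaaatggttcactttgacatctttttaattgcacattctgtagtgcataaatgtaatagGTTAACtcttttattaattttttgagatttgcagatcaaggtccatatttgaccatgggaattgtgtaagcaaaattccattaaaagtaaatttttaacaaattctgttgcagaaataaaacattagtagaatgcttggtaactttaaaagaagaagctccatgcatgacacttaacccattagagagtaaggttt

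In local alignment the windows of Slc22a28 and Slc22a30 were 98.0% identical over 294 columns, those of Slc22a29 and Slc22a30 85.8% identical over 219 columns, and those of Slc22a28 and Slc22a29 84.5% identical over 219 columns. These 3 pairs had the highest alignment scores among the 231 pairs of 22 Slc22 promoters. The window of Slc22a27 had no alignment of over 100 columns with that of another of the 7 genes. The hexamer GTTAAC, which reads the same on both strands and was chosen after the sequences were seen, lay 140 bases before the start of Slc22a28, 121 before that of Slc22a29 and 146 before that of Slc22a30. It was present in 3.05% of all 32851 promoters of this length. The STAT5 core TTCNNNGAA was found in 1 of the 6 windows, that of Slc22a26, and in 8.30% of all promoters. All motifs were searched on both strands. The HNF1 consensus was in 0 of the 6 windows and in 0.0091% of all promoters, the direct repeat of nuclear receptors with a spacer of 1 base in 0 and 0.0396%, and the TATA box TATAAA in 0 and 13.6%. No window held more than 1 of these motifs. These matches describe letters in a window only.

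All HFD arrays lay on 1 slide and all ND arrays on the other, so diet and slide cannot be told apart, and feeding time goes with the row of the slide (3 months in row 1, 9 months in row 2). The 75th percentile of the processed signal was 184 to 425 on HFD arrays and 477 to 593 on ND arrays, with the value of 184 on HFD 9 months replicate 2. Between 40.6% and 54.1% of the spots of an array were well above background. Hepatocyte markers were well above background on every array, 12 of 12, and their summed signal in units of the 75th percentile was 4635 to 4796 (HFD 3 months), 4460 to 7255 (HFD 9 months), 6569 to 7291 (ND 3 months) and 6213 to 6439 (ND 9 months). Of 8 kidney tubule markers, 1 to 3 were well above background on an array. Among them Umod, Kap, Slc5a12 and Slc22a12 were near background on all 8 arrays. In bulk tissue fewer cells of a type and less RNA per cell cannot be told apart.

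Slc22a29 and Slc22a27 were the members with the largest differences between diets at both durations. The level of Slc22a29 was 1.85 and 2.18 in HFD livers of 3 months, against -1.98 and -2.12 in ND livers of 3 months. At 9 months the level was 1.65 and 1.08 in HFD livers, against -1.41 and -3.03 in ND livers. Every HFD array was above every ND array. The difference was 4.07 ± 0.52 (log2, HFD minus ND, SE, n = 2 animals per group) at 3 months, 16.8-fold, and 3.58 ± 0.52 at 9 months, 12.0-fold. Leaving out 1 array at a time, it ran from 3.90 to 4.24 at 3 months and from 2.77 to 4.39 at 9 months.

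Slc22a27, had a like pattern over the arrays. Its level was 1.76 and 2.09 in HFD livers of 3 months, against -1.75 and -2.09 in ND livers of 3 months. The 9-month values were 1.91 and 1.34 in HFD livers, against -0.72 and -2.70 in ND livers. The diets did not overlap at either duration. The difference was 3.84 ± 0.61 at 3 months, 14.4-fold, and 3.34 ± 0.61 at 9 months, 10.1-fold. It ran from 3.68 to 4.01 at 3 months and from 2.35 to 4.32 at 9 months with 1 array left out.

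Slc22a26 was dim and variable. Its level was -3.26 and -1.52 in HFD livers of 3 months, against -3.76 and -5.19 in ND livers of 3 months, the last of these not well above background. At 9 months Slc22a26 was at -1.67 and -1.64 in HFD livers, against -1.15 and -3.65 in ND livers. The diets did not overlap at 3 months and overlapped at 9 months. The differences, 2.08 ± 0.96 and 0.74 ± 0.96, came with the largest standard errors of the 6 genes.

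**Figure D1:**
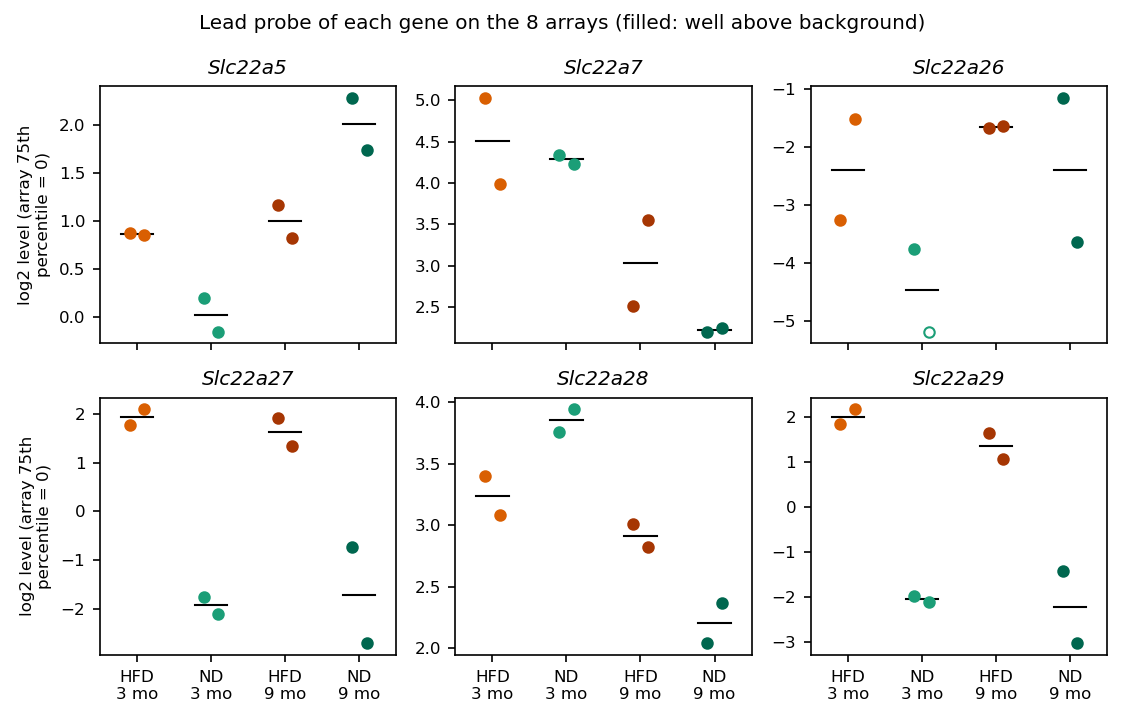
Levels of the lead probe of the 6 measured genes on the 8 arrays, as log2 processed signal relative to the array's 75th percentile (y axis, scaled per gene) by diet and duration (x axis). Each point is 1 animal, bars are group means, and the open point (Slc22a26, -5.19) was not well above background. Slc22a27 and Slc22a29 sit between 1.08 and 2.18 on HFD arrays and between -3.03 and -0.72 on ND arrays.

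Slc22a28 and Slc22a5 had differences of opposite sign at the 2 durations. By its lead probe Slc22a28 was at 3.40 and 3.08 in HFD livers of 3 months, against 3.76 and 3.94 in ND livers of 3 months. At 9 months the lead probe read 3.01 and 2.82 in HFD livers, against 2.04 and 2.37 in ND livers. HFD was thus below ND on both arrays at 3 months and above it on both at 9 months, with differences of -0.60 ± 0.22 and 0.72 ± 0.22. The second probe of Slc22a28 read 2.98 and 2.51 in HFD livers of 3 months, against 3.48 and 3.51 in ND livers of 3 months. At 9 months it read 2.75 and 1.93 in HFD livers, against 1.70 and 2.17 in ND livers, which overlapped. Its differences were -0.75 ± 0.34 and 0.41 ± 0.34, the same signs as those of the lead probe.

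Slc22a5 was at 0.87 and 0.85 in HFD livers of 3 months, against 0.20 and -0.15 in ND livers of 3 months. By 9 months Slc22a5 stood at 1.17 and 0.82 in HFD livers, against 2.28 and 1.74 in ND livers. HFD was above ND at 3 months (0.84 ± 0.26) and below it at 9 months (-1.01 ± 0.26), with no overlap at either time. The 4 HFD values spanned 0.82 to 1.17, inside the span of the 4 ND values.

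Slc22a7 overlapped between diets at 3 months. Its level was 5.03 and 3.99 in HFD livers, against 4.34 and 4.23 in ND livers (0.22 ± 0.44). After 9 months it was 2.51 and 3.55 in HFD livers, against 2.20 and 2.24 in ND livers, a difference of 0.81 ± 0.44. The SD over 2 animals was 0.73 and 0.74 in HFD livers of 3 and 9 months, against 0.08 and 0.03 in ND livers.

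Read against all probes, the diet comparison had called 4.37% of the 25847 probes at 3 months and 7.28% at 9 months (limma, Benjamini-Hochberg adjusted p under 0.05, n = 2 per group). Of the 6 measured members, 2 were among them at each duration, Slc22a27 and Slc22a29. Since the members were picked with this comparison in view, nothing is read from that count. The count was 0 at 3 months without HFD 3 months replicate 1 or 2 or ND 3 months replicate 1 or 2. At 9 months it was 0 without ND 3 months replicate 1 or 2, and 1 without HFD 3 months replicate 1 or 2, HFD 9 months replicate 1 or 2 or ND 9 months replicate 2. The diets did not overlap for 5 of the 6 lead probes at 3 months and for 5 of 6 at 9 months, where 69.9% and 53.5% of all probes did not. The median difference of the 6 lead probes was 1.46 at 3 months and 0.78 at 9 months, beside -0.01 and 0.01 over all probes tested. Nothing is read from these shares and medians either, for the same reason. The members also differed in sign, from -0.60 (Slc22a28) to 4.07 (Slc22a29) at 3 months. At 9 months they ran from -1.01 (Slc22a5) to 3.58 (Slc22a29).

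Summed markers of stellate cells and adipocytes were higher on HFD at both durations, and those of macrophages at 3 months, where they overlapped between diets at 9 months. Stellate cell markers, 5 of 6 well above background on all 8 arrays and Des near background on all, summed to 7.90 to 7.94 in HFD livers of 3 months, against 2.80 to 3.12 in ND livers of 3 months. At 9 months they summed to 6.80 to 9.24 in HFD livers, against 2.15 to 3.16 in ND livers. Adipocyte markers, of which Adipoq, Lep and Plin1 were near background on all 8 arrays and Fabp4, Cfd and Cidec were not, summed to 37.2 to 38.7 in HFD livers of 3 months, against 9.05 to 16.4 in ND livers of 3 months. At 9 months they summed to 46.3 to 79.0 in HFD livers, against 8.06 to 22.1 in ND livers. Macrophage markers, 5 of 5 well above background on all 8 arrays, summed to 86.1 to 106.8 in HFD livers of 3 months, against 54.9 to 64.4 in ND livers of 3 months, and at 9 months to 106 to 179 in HFD livers, against 117 to 372 in ND livers. The part of these markers in the levels of the transporters was not tested.

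Feeding time was compared within each diet, with the arrays of 1 slide only. All mice were bought at the same age, so longer feeding also meant older animals. Age and feeding time cannot be told apart here. On ND the carnitine transporter Slc22a5 was higher and Slc22a28 lower after 9 months than after 3 months. Slc22a5 was at 2.28 and 1.74 in ND livers of 9 months, against 0.20 and -0.15 in ND livers of 3 months, a difference of 1.98 ± 0.26 or 3.96-fold. The lead probe of Slc22a28 was at 2.04 and 2.37 in ND livers of 9 months, against 3.76 and 3.94 in ND livers of 3 months, a difference of -1.64 ± 0.22 or 3.12-fold. Its second probe differed by -1.56 ± 0.34. Both genes were among the 0.851% of all probes that limma called over time on ND, 2 of 6 members, and nothing is read from that count. It was 2 without HFD 9 months replicate 1 or 2 and 0 without any single one of the other 6 arrays or with the replicate number as a block. The arrays of the 2 durations on ND did not overlap for 4 of the 6 lead probes, against 59.9% of all probes. Over the 8 refits without 1 array the difference ran from 1.71 to 2.25 for Slc22a5 and from -1.81 to -1.48 for Slc22a28. The ND 3 months arrays also serve in the diet comparison at 3 months, so these values are not independent of those given above.

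Slc22a7 was lower after 9 months on both diets. It was at 2.20 and 2.24 in ND livers of 9 months, against 4.34 and 4.23 in ND livers of 3 months (-2.07 ± 0.44). On HFD it was at 2.51 and 3.55 after 9 months, against 5.03 and 3.99 after 3 months (-1.48 ± 0.44). No array of 9 months reached the lowest array of 3 months. For the remaining members on ND, Slc22a26 differed by 2.08 ± 0.96, Slc22a27 by 0.21 ± 0.61 and Slc22a29 by -0.16 ± 0.52. On HFD 0 of the 6 were called by limma, where 0.00387% of all probes were, and 1 of the 6, Slc22a7, had an unadjusted p under 0.05, as did 15.2% of all probes. The differences on HFD were 0.13 ± 0.26 for Slc22a5, -0.32 ± 0.22 for Slc22a28, -0.30 ± 0.61 for Slc22a27, -0.65 ± 0.52 for Slc22a29 and 0.73 ± 0.96 for Slc22a26. The arrays of the 2 durations on HFD did not overlap for Slc22a7, Slc22a28 and Slc22a29, as for 44.1% of all probes.

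**Figure D2:**
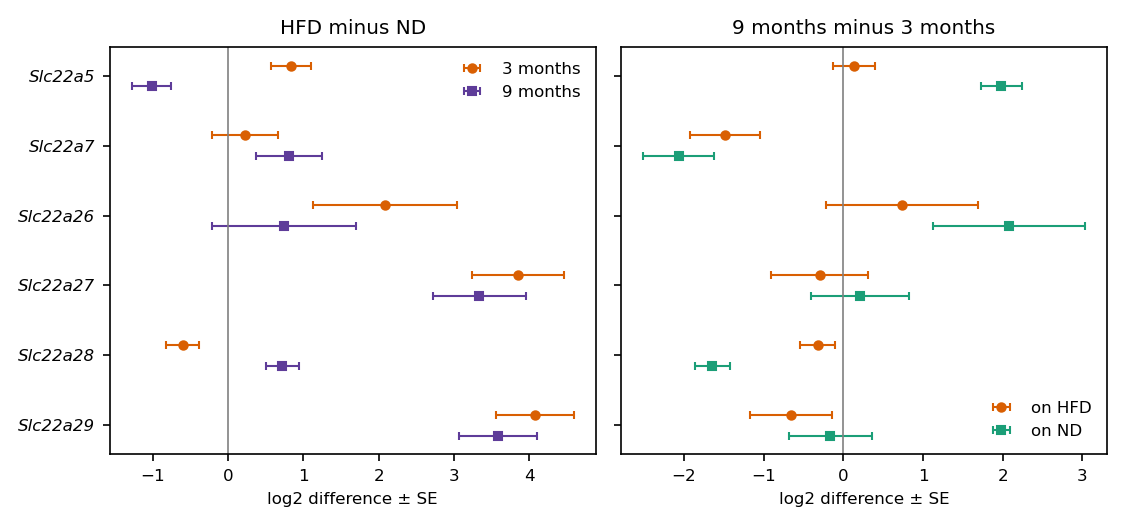
Log2 differences of the 6 lead probes (rows) with their standard errors as horizontal bars: HFD minus ND at 3 and 9 months in the left panel and 9 minus 3 months on each diet in the right panel. Slc22a27 and Slc22a29 stand at 3.34 to 4.07 in the diet comparison and within 0.65 of 0 for feeding time, while Slc22a5 stands at 1.98 and Slc22a28 at -1.64 for feeding time on ND.

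The order of the groups therefore differed by gene. From high to low by group mean, Slc22a27 ran HFD 3 months (1.93), HFD 9 months (1.63), ND 9 months (-1.71) and ND 3 months (-1.92), and Slc22a29 ran HFD 3 months (2.02), HFD 9 months (1.36), ND 3 months (-2.05) and ND 9 months (-2.22). Within each diet the means of both genes differed by 0.65 or less. Slc22a5 ran ND 9 months (2.01), HFD 9 months (0.99), HFD 3 months (0.86) and ND 3 months (0.03), and the 2 HFD groups in the middle overlapped. Slc22a28 ran ND 3 months (3.85), HFD 3 months (3.24), HFD 9 months (2.92) and ND 9 months (2.20). Slc22a7 ran HFD 3 months (4.51), ND 3 months (4.29), HFD 9 months (3.03) and ND 9 months (2.22), with the 2 groups of 3 months overlapping. Slc22a26 ran HFD 9 months (-1.66), HFD 3 months (-2.39), ND 9 months (-2.40) and ND 3 months (-4.48), and the first 3 of these overlapped.

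Profiles over the 8 arrays were compared by their root-mean-square difference after each was centred on its own mean, a description with no test. Among 12882 other genes Slc22a29 was the nearest to Slc22a27 and Slc22a27 the nearest to Slc22a29, at 0.24 on the log2 scale. The next nearest were S100g, a calcium-binding protein, for Slc22a29 and Stap1, a signalling adaptor, for Slc22a27. Their distances and ranks are not settled, since S100g was well above background on only 3 of the 8 arrays, none of them ND, and Stap1 on 5. Col1a1, a fibrillar collagen chain and one of the stellate cell markers above, well above background on all 8 arrays, was the third for both (0.54 and 0.61). The animals of 1 group also deviated alike: ND 9 months replicate 1 exceeded replicate 2 by 1.98 for Slc22a27, by 1.62 for Slc22a29 and by 2.50 for Slc22a26, against 0.54 for Slc22a5, -0.04 for Slc22a7 and -0.33 for Slc22a28. On the 4 ND arrays alone the 2 profiles differed by 0.24, and Slc22a29 ranked 35 among the genes near Slc22a27 and Slc22a27 ranked 81 among those near Slc22a29. On the 4 HFD arrays alone they differed by 0.18, with ranks of 1271 and 629. The mutual first rank was thus seen over both diets together and not within a diet.

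**Figure D3:**
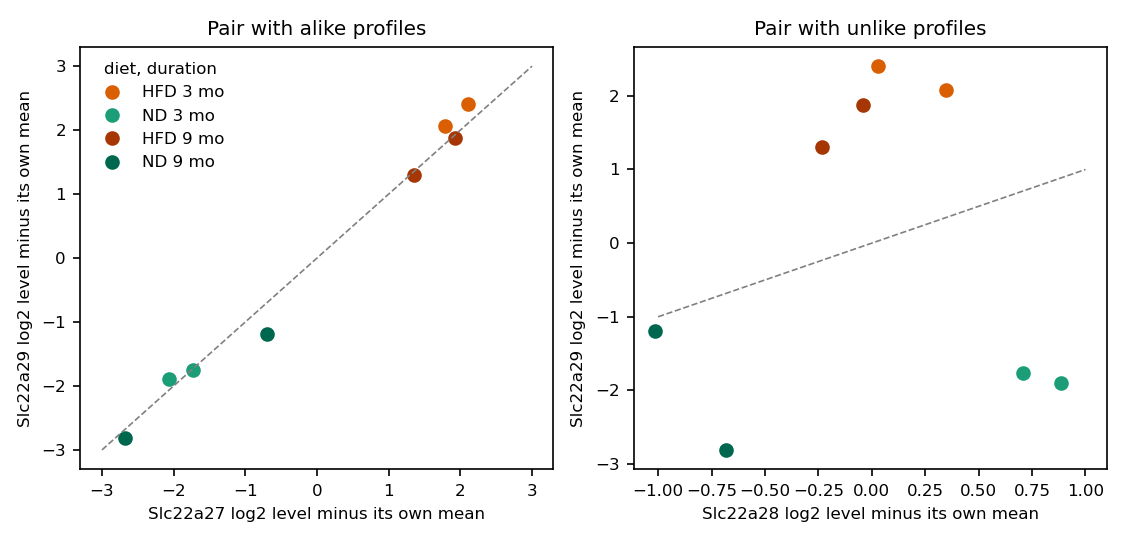
Levels of Slc22a29 (y axis) against Slc22a27 (left x axis) and Slc22a28 (right x axis) on the 8 arrays, each as a log2 level minus the gene's own mean; the dashed line marks equal values. On the left the points follow the line in a HFD and a ND cluster, with a root-mean-square difference of 0.24. On the right they do not, with 2.03.

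The 2 measured neighbours with alike promoter windows, Slc22a28 and Slc22a29, had unlike profiles (2.03). Slc22a27 and Slc22a29, whose windows did not align over 100 columns, had alike ones. Slc22a30 had no level to compare, and a link between windows and levels was not tested. The 2 probes of Slc22a28 differed from each other by 0.21. Slc22a28 was also nearer to Slc22a7 (0.62) than to any other of the 6 measured members. Its nearest genes were F11, coagulation factor XI (0.16), Cyb5b, a mitochondrial cytochrome b5 (0.20), and Exosc8, a subunit of the RNA exosome (0.22).

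Slc22a5 was nearest to Hsph1, a heat shock chaperone (0.17), Ehhadh, a peroxisomal fatty acid oxidation enzyme (0.22), and Angptl4, a secreted inhibitor of lipoprotein lipase (0.28). Ehhadh was at 5.69 and 5.93 in HFD livers of 3 months, against 5.09 and 4.90 in ND livers of 3 months. At 9 months Ehhadh was at 5.68 and 5.75 in HFD livers, against 7.07 and 7.02 in ND livers. As for Slc22a5, the ND arrays of 9 months were the highest and those of 3 months the lowest. Slc22a7 was nearest to Traip, Nat8f1 (0.36) and Trip13 (0.41), but Traip was well above background on only 3 of the 8 arrays, none of 9 months, so its first rank is not settled. Trip13 was well above background on 7 arrays. Slc22a26 was nearest to Dock11 (0.48, 7 arrays well above background), 2010003K11Rik (0.48) and Cgref1 (0.49).

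The gene lists that follow were chosen with earlier results of these data known, so their counts and p-values are not independent evidence. Genes that handle carnitine were listed beside its transporter. All 12 were measured: on HFD at 3 months 1 rose and 0 fell, with a median difference of 0.46, where limma called 4.37% of all probes. At 9 months 0 passed by limma, beside 7.28% of all probes, and the median was -0.02. There 4 of the 12 had an unadjusted p under 0.05, beside 27.5% of all probes. From 3 to 9 months on ND 2 of the 12 rose and 0 fell, where 0.851% of all probes were called (median 0.45, beside -0.07 over all probes). Cpt1b, a carnitine palmitoyltransferase typical of muscle, was at -1.81 and -1.13 in HFD livers of 3 months, against -3.45 and -3.60 in ND livers of 3 months, 1 of these not well above background. It rose by 2.06 ± 0.27 on HFD at 3 months (limma adjusted p = 0.0194) and by 3.18 ± 0.27 from 3 to 9 months on ND (limma adjusted p = 0.0174). Its diet difference at 9 months, 0.32 ± 0.27, was not called. Crat, carnitine acetyltransferase, rose by 2.11 ± 0.27 from 3 to 9 months on ND (limma adjusted p = 0.0345).

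Of the 19 Slc22 genes outside the 7, 18 had a probe and 10 passed the filter. Slc22a6, or OAT1, is the organic anion transporter best known from kidney. It fell on HFD at 3 months and was the 1 of 10 that passed there, where 4.37% of all probes did. It was at -2.49 and -2.29 in HFD livers of 3 months, against -0.61 and -0.70 in ND livers of 3 months, a fall of 1.74 ± 0.26 on the log2 scale (-1.74, limma adjusted p = 0.0257). The call ended without either array of HFD 3 months or either of ND 3 months. At 9 months Slc22a6 was at -2.02 and -1.38 in HFD livers, against -0.84 and -1.10 in ND livers (-0.73 ± 0.26, limma adjusted p = 0.138). At 9 months 0 of 10 passed by limma, beside 7.28% of all probes, and 4 had an unadjusted p under 0.05, beside 27.5%. The kidney marker list holds Slc22a6 itself, its only gene well above background on all 8 arrays. The list summed to 0.421 to 0.442 in HFD livers of 3 months, against 0.928 to 0.986 in ND livers of 3 months. That sum is not independent of the fall of Slc22a6, and the part of the other markers was not tested. In both duration comparisons 0 of 10 passed, with 3 each at an unadjusted p under 0.05, as had 15.2% of all probes in each.

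Slc22a3, an organic cation transporter, is also named after its values were seen. It was well above background on both ND arrays of 9 months and on none of the other 6 arrays, so its level there was at least 1.48-fold lower in HFD livers of 9 months than in ND livers of 9 months (limma adjusted p = 0.0767). With 1 array left out that bound ran from 1.24 to 1.77. Slc22a3 passed the filter on dim probes only through its ND arrays of 9 months, so its p-values are not independent evidence. It is among the genes counted above with an unadjusted p under 0.05 between diets at 9 months and over time on ND. Slc22a21, or OCTN3, a carnitine transporter encoded beside Slc22a5, was named likewise. It had the group order of Slc22a5 and was at -0.32 and -0.74 in ND livers of 9 months, against -2.02 and -2.10 in ND livers of 3 months, and at -1.88 to -1.29 on the HFD arrays. Its difference over time on ND was 1.53 ± 0.26 and did not pass (limma adjusted p = 0.0684).

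**Figure D4:**
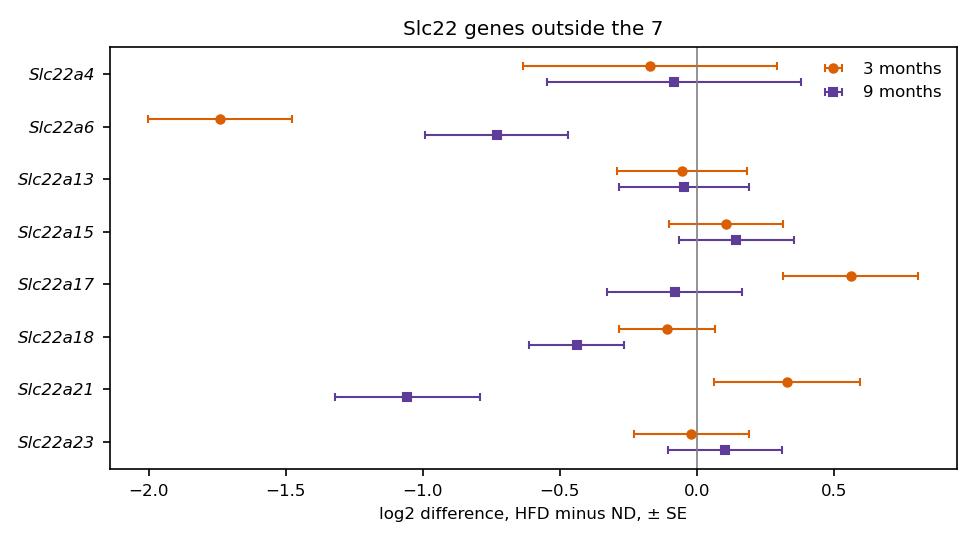
Log2 differences between HFD and ND (x axis, HFD minus ND, bars are standard errors) of 8 of the 10 measured Slc22 genes outside the 7 (rows), at 3 and 9 months. Slc22a6 stands at -1.74 at 3 months and at -0.73 at 9 months.

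Transporters of other families served as a further comparison. Of 22 measured uptake and export transporters 0 were called by limma in either diet comparison, where 4.37% and 7.28% of all probes were. At an unadjusted p under 0.05 were 5 at 3 months and 11 at 9 months, beside 25% and 27.5% of all probes. Their medians were 0.05 and 0.23, beside -0.01 and 0.01 over all probes.

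Some Slc22 genes of the chromosome 19 cluster are known to differ between the sexes in mouse, so genes with a sex bias in liver were listed too. Of 14 measured genes with higher expression in female liver 6 rose and 1 fell on HFD at 3 months (median 1.79), where 4.37% of all probes were called. At 9 months 5 rose and 1 fell (median 1.28), where 7.28% were. Hao2, a peroxisomal hydroxy acid oxidase, was at 1.51 and 1.75 in HFD livers of 3 months, against -3.72 and -5.24 in ND livers of 3 months, the last not well above background. It rose by 6.11 ± 0.91 (limma adjusted p = 0.0251). At 9 months it was at 0.39 and -2.34 in HFD livers, against -5.51 and -6.10 in ND livers, neither of these well above background. It was at least 8.71-fold higher on HFD (limma adjusted p = 0.0329), a bound that is 3.39-fold without HFD 9 months replicate 1 and 22.4-fold without replicate 2. Hao2 passed the filter on dim probes only through its HFD arrays, so its p-values are not independent evidence. It is among the genes counted above as risen at both durations. Acot3, an acyl-CoA thioesterase, rose by 3.07 ± 0.43 at 3 months (limma adjusted p = 0.0231) and Atp6v0d2, a subunit of the proton pump, by 2.42 ± 0.32 at 9 months (limma adjusted p = 0.0148), with 1 of its ND arrays of 9 months not well above background. Neither was called at the other duration, where Acot3 differed by 0.72 ± 0.43 and Atp6v0d2 by 1.34 ± 0.32.

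Cyp2b13, a cytochrome P450, rose by 6.75 ± 1.17 at 3 months and by 6.97 ± 1.17 at 9 months (limma adjusted p = 0.0358 and 0.0259). From the same list Cyp17a1, a steroid hydroxylase, fell at 3 months (-3.42 ± 0.50, limma adjusted p = 0.0247). At 9 months it differed by -1.51 ± 0.50 and was not called. Cyp4a10, a fatty acid hydroxylase and a target of PPARa, rose at 3 months and fell at 9 months (1.34 ± 0.21 and -1.04 ± 0.21, limma adjusted p = 0.0280 and 0.0381). Of 17 measured genes with higher expression in male liver 5 fell and 0 rose on HFD at 3 months (median -1.56), where 4.37% of all probes were called. At 9 months 1 fell (median -1.01), where 7.28% were. Bcl6 was higher on HFD at both durations and Cyp2u1 and Serpina1e at 9 months, none of them called. The genes that fell included Elovl3, a fatty acid elongase (-2.92 ± 0.44 at 3 months and -2.71 ± 0.44 at 9 months, limma adjusted p = 0.0257 and 0.0230). Cyp7b1, an oxysterol hydroxylase, stood at -1.90 ± 0.30, C8b, a complement component, at -1.81 ± 0.18, and Cspg5 at -3.02 ± 0.55 at 3 months (limma adjusted p = 0.0281, 0.0125 and 0.0390), the last with 1 HFD array not well above background. At 9 months Cyp7b1 (-0.71 ± 0.30), C8b (-0.50 ± 0.18) and Cspg5 (-2.40 ± 0.55) were not called. Without either ND array of 3 months limma called 0 of all probes at 3 months and 0 over time on ND, so each call named above in those comparisons was lost there, those of Cpt1b, Crat and Slc22a6 included. All 8 animals were male per the labels. Whether the transporters and these lists share a cause was not tested.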

How the data were processed

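Scans of the 8 arrays were quantified with Agilent Feature Extraction 10.7.1.1, per the submitters' processing notes. The deposited processed signal is a background-subtracted intensity on a linear scale, per the file headers, and arrays were not scaled to each other. Spot and background median signals are raw intensity values in the deposited files. Spot flags are other values in those deposited files, coded 0 or 1. The authors also deposited log2 values, which order the spots of each array exactly as the median signal orders them (Spearman's rho 1) and have column medians from 7.18 to 7.20. How these were scaled is not given in the sources used here.

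Of the 59305 spots read, 3671 were controls and were left out, as were spots with an outlier flag. Log2 signals were centred on each array's 75th percentile and spots of a probe averaged. None of the member spots was flagged or saturated. The filter on dim probes asked for spots well above background in both animals of some group, and 5 probes with no value in a group were also dropped. Names came from accessions found in RefSeq's gene list for GRCm38.p6 (26056 probes, 19752 symbols), whereas the array design is on mm9. A gene's lead probe is its kept probe with the highest mean. The 2 arrays of a group are separate mice, per the labels. One label describes ND 3 months replicate 1 as a diseased mouse, while its title and diet place it on ND, which was used.

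limma 3.58.1 (R 4.3.3, with version 1.17.8 of data.table) was fitted to 4 group means over all kept probes, with lmFit and eBayes (4 residual and 2.38 prior degrees of freedom), and tests are two-sided. A call is a Benjamini-Hochberg adjusted p under 0.05 over all kept probes, and SE values are those of the fit. The script was tested on simulated data, with 50 changes of each size planted in the diet comparison at 9 months. It found 0 of those of 1 on the log2 scale, 22 of those of 2, 32 of those of 3 and 41 of those of 4. A gene that was not called may thus still have changed. A gene dim in both animals of a group is given as a bound, set by the weakest signal that still stood well above background on each array. Promoters were aligned with biopython 1.88 in Python 3.11.15, and plots made with matplotlib 3.10.9, numpy 2.4.6 and pandas 2.3.3.

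Members, gene lists and alternatives were chosen with earlier results of these data known. The text names all members, Slc22 genes that were called, up to 4 called genes per list and diet comparison, and the 3 nearest profiles of each member. Crat, Slc22a3 and Slc22a21, named after their values were seen, lie outside that rule. Values of 1 further Slc22 gene are not reported here. Alternatives were normexp, quantile normalization, the authors' log2 values, a looser and a stricter filter, a single probe per gene, the replicate number as a block, and leaving out each array.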

Additional observations from a re-analysis of the deposited data

Results flagged for a closer look

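Slc22a5 and Slc22a28 were flagged by the difference between their diet effects at 9 and 3 months. By their lead probes every HFD array lay on 1 side of every ND array at 3 months and on the other side at 9 months. With 2 arrays per group the diets did not overlap for 69.9% of all probes at 3 months and 53.5% at 9 months. The share of all probes that switched side was not counted, so nothing is read from the switch itself. For Slc22a5 the diet difference at 9 months minus that at 3 months was -1.85 ± 0.37 on the log2 scale. For the lead probe of Slc22a28 it was 1.32 ± 0.31, and for its second probe 1.16 ± 0.48, with an overlap of the diets at 9 months. Over all genes 0 of 25847 probes passed limma's test of this difference, these included, and 1924 had an unadjusted p under 0.05. Because the 2 genes were chosen with the diet differences in view, their own values are a description. Single deviating samples could not be looked for in groups of 2 animals.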

How the results depend on the processing

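Single members took 445 values under the alternatives: 399 kept their direction and their side of the threshold, 37 no longer passed, 1 newly passed (Slc22a5 at 9 months with the authors' log2 values, -1.02) and 8 changed sign. All 8 changes of sign came with 1 array left out, and none of these values passed. Without the filter on dim probes 0 members were called in either diet comparison or over time on ND, beside 2 in each, and 0 other Slc22 genes at 3 months, beside 1, with 55676 probes tested in place of 25847. Other Slc22 genes called at 9 months numbered 1 with normexp and 1 with the authors' log2 values, beside 0, and over time on ND 1 under the stricter filter, beside 0, and the cause was not tested. Normexp moved the median of all probes at 9 months to 0.11, beside 0.01. With the replicate block 0 members were called over time on ND, beside 2. Replicate numbers do not pair the animals: deviations of same-numbered arrays correlated between groups at -0.02 to 0.14.

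With 1 array left out, called members ranged from 0 to 2 in each diet comparison and over time on ND, and called other Slc22 genes from 0 to 1 at 3 months, 0 to 3 at 9 months, and 0 to 1 over time on each diet. A lone animal left in a group was assumed to vary like the others. Over the arrays left out, values that changed sign ranged from -0.29 to 0.74 for Slc22a7 at 3 months, from -0.51 to 1.99 for Slc22a26 at 9 months, and over time on HFD from -0.14 to 1.60 for Slc22a26 and from -0.041 to 0.31 for Slc22a5. Over time on ND they ranged from -0.78 to 1.20 for Slc22a27 and from -0.97 to 0.65 for Slc22a29. The difference between the diet effects of 9 and 3 months ranged from -1.499 to 0.48 for Slc22a27 and from -1.30 to 0.32 for Slc22a29.

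Over all probes, calls at 3 months (1130) ranged from 0 to 2511 with 1 array left out and were 0 without the filter, where 6447 had an unadjusted p under 0.05. At 9 months (1882) they ranged from 300 to 3078 and were 41 without the filter. Over time on ND (220) they ranged from 0 to 376, with 34 under the block and 4 without the filter. Over time on HFD (1) they ranged from 0 to 2925, with 27 under normexp, 58 under quantile normalization and 78 with the authors' log2 values. For the difference between durations (0) quantile normalization gave 3. Slc22a27 and Slc22a29 stayed each other's nearest profile under quantile normalization (0.23), normexp (0.19) and the authors' log2 values (0.21), settings chosen after seeing the data. With 2 arrays per group, precision is limited by their number.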
